A study of Homo sapiens with 12 samples.

Results

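The genes described here build, drive and check mitosis: the G2/M cyclins with their kinases and phosphatases, the kinetochore, the mitotic kinesins, the spindle checkpoint, and proteins of mitotic chromosomes, the spindle and cytokinesis. A list of 57 such genes was matched to the array's probe sets, and a gene counted as measured where at least 1 probe set carries its symbol and no other. This held for 50 of the 57, out of 14232 genes measured in all. BUB1B, CENPN, KIF20A, KIF23, KIF4A, NCAPG and SMC4 lie on probe sets shared with other symbols and were not analysed. BIRC5 alone had more than 1 such probe set, and the one with the highest mean over the 12 arrays was used. Members were matched to probe sets by symbol, and measured values entered that matching only in the choice between probe sets. The list of members itself was chosen with earlier results of these data known.

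The cells were LN229, an established human glioblastoma line, and RNA was measured on 12 Affymetrix whole-transcript arrays, 3 per group. The 4 groups were cells with siRNA against HIF1A at 1% oxygen (hypoxia), cells with siRNA against HIF2A (gene symbol EPAS1) at 1% oxygen, cells with a non-targeting control siRNA at 1% oxygen, and cells with the same control siRNA at 20% oxygen (normoxia). All groups were transfected 24 h after seeding, were placed at their oxygen level 48 h after transfection, and were collected after a further 16 h. The labels number the replicates but do not say that they were separate cultures, so the p-values reflect only how far these arrays scatter, and that scatter may be technical. Normoxic cells with either HIF siRNA were not analysed here, and all 4 groups are 1 cell line.

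Entry into mitosis is driven by cyclin A and cyclin B bound to CDK1, which CDC25 phosphatases switch on and Polo and Aurora kinases reinforce. Kinetochores then tie chromosomes to spindle microtubules, kinesins move and shape those microtubules, and the spindle checkpoint holds back the anaphase-promoting complex until each chromosome is attached. Most of these genes are transcribed mainly in late S, G2 and M phase, through CCAAT boxes bound by NF-Y and the cell cycle genes homology region (CHR), which the DREAM and MYB-MuvB complexes and FOXM1 use, so their RNA in a culture also follows how many cells are dividing. In hypoxia, HIF1A and HIF2A accumulate and bind the hypoxia response element, searched here as ACGTG, a common form of its core.

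Promoter sequences were read for the members from RefSeq (GRCh38.p14). The 7 stretches below are 150 bases that end at the base before the annotated start, 5′ to 3′ on the gene's strand. CCNB2, KIF18A, DLGAP5 and SMC2 were chosen because they were the 4 members lower with HIF1A siRNA than with control siRNA in hypoxia. By the same test 10.2% of all genes were lower, and none of the 4 passed it under each alternative setting run. SPC25, NCAPH and CENPK were chosen because their fall in hypoxia passed the test under each alternative setting run. Capitals mark 3 motifs. The CHR was searched as TTTGAA or, in its other spelling, TTCGAA. The CCAAT box was searched as named, and the core of the hypoxia response element as ACGTG only. All were searched on both strands, so that TTCAAA stands for a CHR on the opposite strand, and likewise ATTGG for a CCAAT box there.
CCNB2 (chr15:59104996-59105145, plus strand): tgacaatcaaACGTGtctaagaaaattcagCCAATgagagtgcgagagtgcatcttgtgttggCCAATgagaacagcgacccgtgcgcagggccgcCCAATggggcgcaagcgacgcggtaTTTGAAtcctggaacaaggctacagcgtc
KIF18A (chr11:28108157-28108306, minus strand): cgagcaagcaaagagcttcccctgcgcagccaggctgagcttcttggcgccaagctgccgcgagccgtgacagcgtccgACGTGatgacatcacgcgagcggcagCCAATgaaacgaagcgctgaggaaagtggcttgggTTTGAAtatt
DLGAP5 (chr14:55191586-55191735, minus strand): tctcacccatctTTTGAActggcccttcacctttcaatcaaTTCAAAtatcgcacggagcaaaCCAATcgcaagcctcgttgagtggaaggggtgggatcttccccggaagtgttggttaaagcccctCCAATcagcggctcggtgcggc
SMC2 (chr9:104094159-104094308, plus strand): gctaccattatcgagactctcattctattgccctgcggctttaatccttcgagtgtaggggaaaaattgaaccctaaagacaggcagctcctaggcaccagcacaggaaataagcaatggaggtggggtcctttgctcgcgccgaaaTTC
SPC25 (chr2:168890431-168890580, minus strand): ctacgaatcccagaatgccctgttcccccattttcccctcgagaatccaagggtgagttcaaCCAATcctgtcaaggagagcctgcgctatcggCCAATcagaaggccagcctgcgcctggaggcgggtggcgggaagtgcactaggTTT
NCAPH (chr2:96335616-96335765, plus strand): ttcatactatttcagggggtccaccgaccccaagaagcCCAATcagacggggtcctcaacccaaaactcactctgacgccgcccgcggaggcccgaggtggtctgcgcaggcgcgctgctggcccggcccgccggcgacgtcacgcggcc
CENPK (chr5:65563169-65563318, minus strand): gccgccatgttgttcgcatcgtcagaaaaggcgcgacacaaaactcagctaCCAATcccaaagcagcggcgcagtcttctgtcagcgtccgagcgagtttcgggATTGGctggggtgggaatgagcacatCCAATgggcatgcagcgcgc
CCNB2 shows the textbook arrangement, 3 CCAAT boxes followed by a CHR that begins 29 bases before the start. KIF18A has 1 CCAAT box, and its CHR begins 10 bases before the start. DLGAP5 has a CHR on each strand upstream of 2 CCAAT boxes. SMC2 has a CHR on the opposite strand and neither of the other motifs in its window. The last capitals of SMC2 and of SPC25 are the first bases of a CHR that runs on past the start. NCAPH has 1 CCAAT box and CENPK has 3, and neither has a CHR in its window.

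A promoter window, 250 bases before to 50 after the start, was held for 42 of the 50 measured members (AURKA, BIRC5, BUB3, CENPM, FOXM1, TPX2, TTK and UBE2C had none), and the first listed window of each gene was used. The CHR occurred in 29 of the 42 windows (69.0%), against 13.1% of the windows of 11386 measured genes and 16.6% of those of 27305 genes. It began in the last 50 bases before the start or in the 50 after it in 25 members (59.5%), against 3.54% of the measured genes. CCAAT was present in 76.2% of the members and 36.5% of the measured genes, and ACGTG in 33.3% of the members and 23.9% of the measured genes. From 50 bases before the start onward, ACGTG was found in 7.14% of the members and 9.35% of the measured genes. A CHR followed by TTGG shares its last base with a CCAAT box on the other strand, as in MKI67, and CACGTG counts as ACGTG on both strands. With any listed window of a gene counted, the CHR was found in 73.8% of the members and 17.5% of the measured genes, CCAAT in 81.0% and 43.0%, and ACGTG in 33.3% and 29.3%. Of 43 other mitosis genes 65.1% had a CHR in this window, and of 36 genes of G1/S and replication 5.56%. A match is a stretch of letters, not a bound site.

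**Figure D1:**
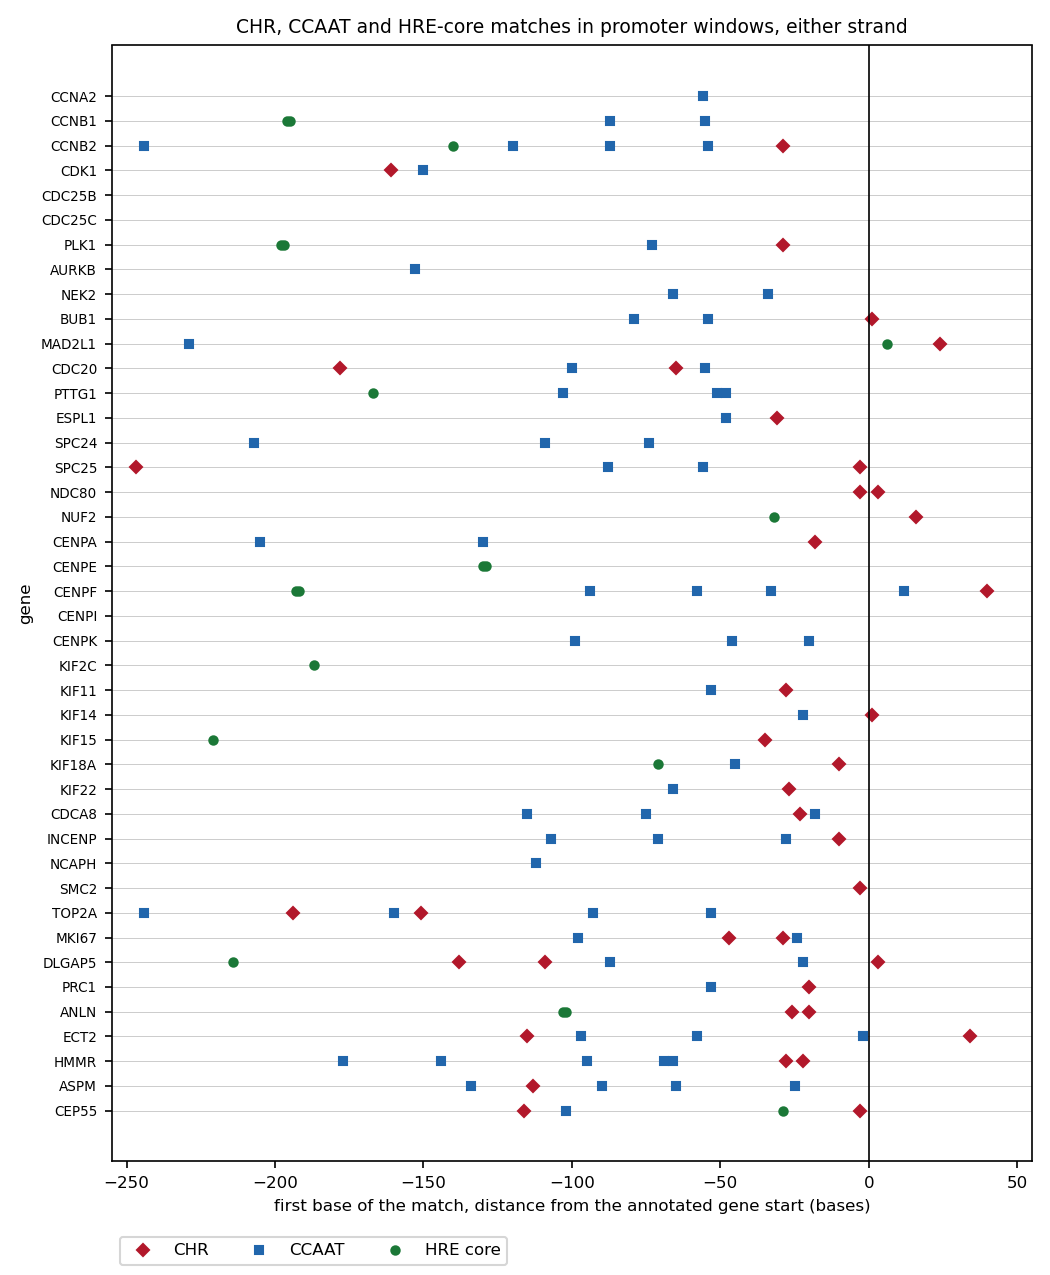
Positions of CHR, CCAAT and ACGTG (HRE core) matches in the promoter windows of 42 members. The x axis is the distance in bases of the first base of a match from the annotated gene start, the rows are genes ordered by class, and each point is 1 match on either strand. CHR matches crowd just around the start, with CCAAT boxes further upstream.

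The deposited values were treated as log2, since they ran within the range of log2 array signals. Upper quartiles of the arrays lay between 7.88 and 8.57, and the lowest was that of HIF1A siRNA array 3, so each comparison was made on the values as deposited and again after quantile normalization, which gives all arrays 1 distribution. Arrays of 1 group correlated at r = 0.983 to 0.994 over probe sets. HIF1A was 8.20, 9.06 and 7.74 with HIF1A siRNA, 11.31, 11.01 and 11.45 with HIF2A siRNA, 11.72, 11.40 and 11.26 with control siRNA at 1% oxygen and 11.59, 11.48 and 11.50 in normoxia. EPAS1, the target of the HIF2A siRNA, was 8.60, 8.08 and 8.02 with HIF1A siRNA, 7.18, 6.99 and 7.18 with HIF2A siRNA, 9.74, 9.57 and 9.83 with control siRNA in hypoxia and 8.55, 8.42 and 8.59 in normoxia. Against control siRNA in hypoxia, HIF1A fell with its siRNA (log2 change -3.13 ± 0.27 SE, adjusted p = 0.00016) and EPAS1 with its own (-2.59 ± 0.15 SE, adjusted p = 3.13e-05), and EPAS1 was also lower with HIF1A siRNA (-1.48 ± 0.15 SE, adjusted p = 0.000313). Of 9 measured glial and glioma markers, vimentin (VIM), nestin (NES), CD44 and S100B lay above the array median on all 12 arrays and OLIG2 on 9. GFAP (6.11 to 6.64) lay above the median on 1 array and ALDH1L1 on 0, both above the lower quartile on all 12. SLC1A3 lay above the lower quartile on 1 array and AQP4 (3.05 to 3.35) on 0. Of 13 markers of microglia, endothelium, neurons and epithelium, PTPRC, AIF1, PECAM1, EPCAM and CDH1 lay below the lower quartile on all 12 arrays, and CD68, SYT1 and KRT18 above the median on all 12.

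Hypoxia lowered part of the mitotic genes and raised none. With control siRNA, 13 of the 50 members were lower in hypoxia than in normoxia and 0 were higher, at an adjusted p under 0.05 in limma over all genes. Of all 14232 genes, 8.95% were called lower and 3.37% higher, and of the 8020 genes with a mean in the members' range (6.59 for CENPE to 11.70 for PTTG1) 13.6% were called lower. The median log2 change was -0.51 over the members, -0.12 over the genes in that range and -0.03 over all genes. Before adjustment, 29 members were lower and 0 higher at p under 0.05. For 37 members, all 3 hypoxic arrays lay below all 3 normoxic ones, which held for 26.3% of all genes. In bulk RNA, fewer cells in G2 and mitosis and less RNA per dividing cell cannot be told apart.

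On quantile-normalized values the fall was smaller in its median and more members passed: 16 members were called lower and 0 higher, with a median of -0.36, against 8.43% of all genes called lower. By class these were 5 of the 10 cyclins, kinases and phosphatases, 3 of the 8 checkpoint genes, 3 of the 10 kinetochore genes, 1 of the 6 kinesins, 3 of the 7 chromosome and passenger genes and 1 of the 8 spindle genes. The count of calls rests on a few arrays: it was 4 without hypoxic control array 2 or without normoxic array 1, 5 without normoxic array 3, and 27 without HIF1A siRNA array 3, which enters through the shared estimate of spread. The share of all genes called with an array left out is not given, here or below. Of the 13 called members, 3 kept the call under each alternative setting and each left-out array, namely SPC25, NCAPH and CENPK.

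**Figure D2:**
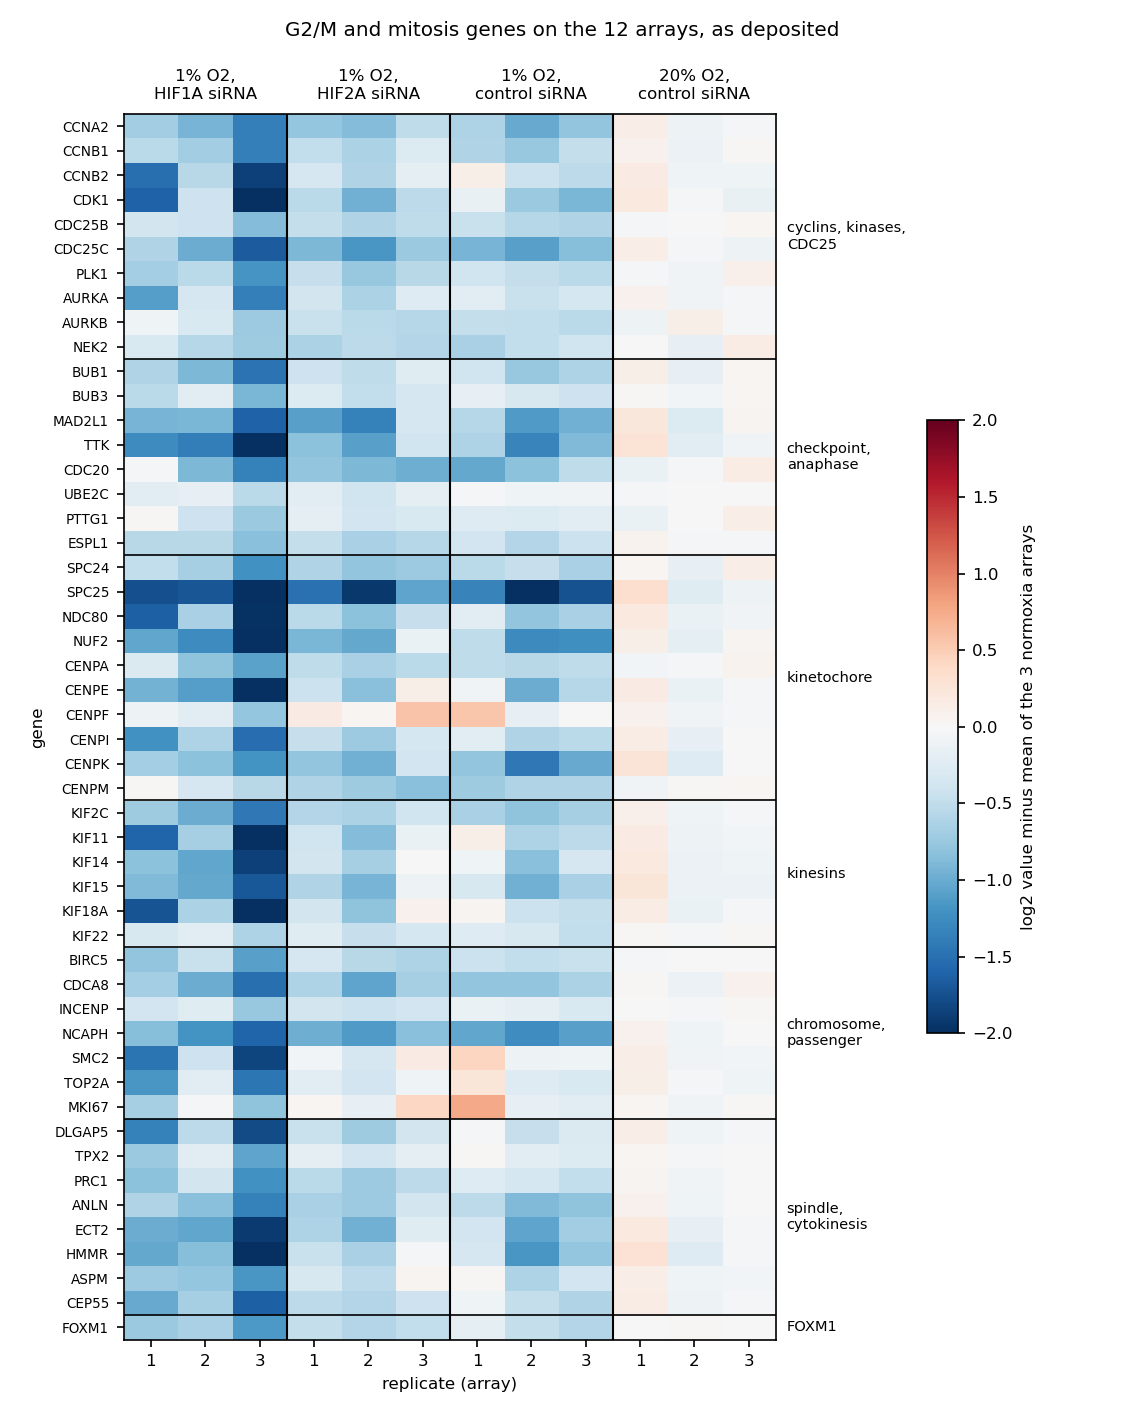
Log2 value of each measured member on each array minus its mean over the 3 normoxic arrays, as deposited. Rows are genes in class order, columns are arrays 1 to 3 of the 4 groups, and the colour scale ends at -2 and 2, so that lower values (to -2.83) take the end colour. HIF1A siRNA array 3 is the darkest of its group in all 50 rows, and on hypoxic control array 1 a few genes, CENPF, SMC2 and MKI67 among them, lie above the normoxic mean.

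Among the cyclins, mitotic kinases and CDC25 phosphatases, 5 of 10 fell in hypoxia (CDC25C, CCNA2, CDC25B, AURKB and NEK2) and 0 rose. The median log2 change was -0.53. Beside this stand 8.95% of all genes and 13.6% of those in the members' range called lower. CDC25C, a phosphatase that activates CDK1 at mitotic entry, had 7.36, 7.20 and 7.43 in hypoxia, against 8.42, 8.26 and 8.18 in normoxia. All 3 hypoxic arrays lay below all 3 normoxic ones, and the log2 change was -0.96 ± 0.22 (SE, adjusted p = 0.0175), which leaves 51.5% of the normoxic level. CCNA2, cyclin A2, had 9.61, 9.22 and 9.44 in hypoxia and 10.36, 10.13 and 10.21 in normoxia, a log2 change of -0.81 ± 0.17 (SE, adjusted p = 0.0119). CDC25B, which starts CDK1 activation at the centrosomes, had 9.40, 9.26 and 9.24 in hypoxia and 9.80, 9.83 and 9.88 in normoxia, a change of -0.54 ± 0.13 (SE, adjusted p = 0.0196). In both genes the groups did not overlap. AURKB, the Aurora kinase of the chromosomal passenger complex, had 9.30, 9.28 and 9.24 in hypoxia and 9.69, 9.89 and 9.77 in normoxia, a change of -0.51 ± 0.14 (SE, adjusted p = 0.0411). NEK2, a kinase that splits centrosomes, had 8.18, 8.35 and 8.44 in hypoxia and 8.85, 8.68 and 8.99 in normoxia, a change of -0.51 ± 0.13 (SE, adjusted p = 0.0228). Neither AURKB (adjusted p = 0.0521) nor NEK2 (adjusted p = 0.117) was called by limma after quantile normalization.

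Cyclins B1 and B2 and their kinase CDK1 were not called as deposited. CCNB1, cyclin B1, had 11.11, 10.96 and 11.24 in hypoxia and 11.81, 11.60 and 11.75 in normoxia, a log2 change of -0.62 ± 0.19 (SE, adjusted p = 0.061). The groups did not overlap, and limma called CCNB1 lower after quantile normalization (-0.53 ± 0.14, adjusted p = 0.0233) but not as deposited. The change of CCNB2, cyclin B2, was -0.28 ± 0.29 (SE, adjusted p = 0.653), and its groups overlapped. That of CDK1 was -0.61 ± 0.35 (SE, adjusted p = 0.326) with no overlap, though hypoxic array 1 came within 0.01 of the lowest normoxic array (8.50, 7.91 and 7.73 in hypoxia, 8.85, 8.61 and 8.50 in normoxia). PLK1, the Polo kinase of mitotic entry, gave -0.47 ± 0.15 (SE, adjusted p = 0.0716) and was called only after quantile normalization (adjusted p = 0.0235), while AURKA, the centrosomal Aurora kinase, gave -0.34 ± 0.22 (SE, adjusted p = 0.396).

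With HIF1A siRNA in hypoxia, 9 of these 10 genes were lower than in normoxia, and with HIF2A siRNA 6 of 10, with medians of -0.90 and -0.55. Of all genes, 30.4% were called lower with HIF1A siRNA and 6.79% with HIF2A siRNA, and of the genes in the members' range 46.6% and 10.3%. CCNA2 had 9.54, 9.30 and 8.87 with HIF1A siRNA, 9.46, 9.37 and 9.73 with HIF2A siRNA and 10.36, 10.13 and 10.21 in normoxia. CDC25C had 7.69, 7.29 and 6.63 with HIF1A siRNA, 7.39, 7.13 and 7.54 with HIF2A siRNA and 8.42, 8.26 and 8.18 in normoxia. Both genes stayed under the normoxic arrays on all 6 siRNA arrays, and the siRNA groups overlapped with the hypoxic control. AURKB was the exception to the calls with HIF1A siRNA, at 9.70, 9.48 and 9.05 against 9.69, 9.89 and 9.77 in normoxia (log2 change -0.37 ± 0.14 SE, adjusted p = 0.0644).

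Of the checkpoint and anaphase genes, 1 of 8 fell in hypoxia and 0 rose, with a median of -0.53. The shares called lower were 8.95% of all genes and 13.6% of those in the members' range. In all 8 checkpoint and anaphase genes the hypoxic arrays lay below the normoxic ones as deposited, which held for 26.3% of all genes. For UBE2C the highest hypoxic array was 9.3611 and the lowest normoxic one 9.3626. After quantile normalization the groups of UBE2C and of PTTG1 overlapped. The gene that fell was ESPL1, separase, the protease that cuts cohesin at anaphase, with 8.53, 8.34 and 8.48 in hypoxia and 8.98, 8.88 and 8.89 in normoxia (log2 change -0.47 ± 0.11 SE, adjusted p = 0.0164). MAD2L1, the checkpoint protein that holds CDC20, had 8.78, 8.23 and 8.39 in hypoxia and 9.59, 9.08 and 9.41 in normoxia. BUB1, a checkpoint kinase at the kinetochore, had 9.71, 9.35 and 9.48 in hypoxia and 10.22, 9.95 and 10.15 in normoxia. The changes of MAD2L1 (-0.89 ± 0.28 SE, adjusted p = 0.0586) and BUB1 (-0.59 ± 0.19 SE, adjusted p = 0.071) missed the threshold as deposited and passed it after quantile normalization (adjusted p = 0.0357 and 0.0309 in limma). TTK, the kinase that starts the checkpoint, gave a log2 change of -0.94 ± 0.33 (SE, adjusted p = 0.0948) and CDC20, the activator that the checkpoint inhibits, one of -0.78 ± 0.27 (SE, adjusted p = 0.0834). PTTG1, securin, gave a log2 change of -0.25, BUB3 one of -0.30 and UBE2C, a ubiquitin-conjugating enzyme of the anaphase-promoting complex, one of -0.06, none of them called.

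With HIF1A siRNA, 7 of these 8 genes were lower than in normoxia and with HIF2A siRNA 1 of 8 (ESPL1), against 30.4% and 6.79% of all genes. After quantile normalization these counts were 4 and 3, against 14.6% and 6.34% of all genes. TTK had 7.55, 7.43 and 6.19 with HIF1A siRNA, 7.99, 7.73 and 8.42 with HIF2A siRNA and 9.09, 8.61 and 8.75 in normoxia. Against normoxia it fell to 29.5% with HIF1A siRNA (log2 change -1.76 ± 0.33 SE, adjusted p = 0.00507), and HIF2A siRNA gave -0.77 ± 0.33 (SE, adjusted p = 0.194). CDC20 had 11.27, 10.41 and 9.95 with HIF1A siRNA, 10.51, 10.40 and 10.32 with HIF2A siRNA and 11.17, 11.28 and 11.45 in normoxia. Its HIF1A siRNA array 1 lay among the normoxic arrays and array 3 lay far below them, and its call with HIF1A siRNA was lost when any 1 of 11 of the 12 arrays was left out.

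The kinetochore and centromere genes held the largest single change in hypoxia, with 3 of 10 lower (SPC25, CENPK and CENPM), 0 higher and a median of -0.55. Lower calls made up 8.95% of all genes and 13.6% of those in the members' range. SPC25, a subunit of the NDC80 complex that grips microtubules, had 7.05, 5.86 and 6.65 in hypoxia, against 8.74, 8.15 and 8.30 in normoxia. It fell to 27.3% of the normoxic level, a log2 change of -1.87 ± 0.36 (SE, adjusted p = 0.00753), and hypoxic array 2 was the lowest of its group. The other subunits of that complex did not pass the test: SPC24 had 8.19, 8.27 and 8.09 in hypoxia and 8.77, 8.56 and 8.86 in normoxia (log2 change -0.55 ± 0.17 SE, adjusted p = 0.0552). NUF2 had 8.27, 7.50 and 7.55 in hypoxia and 8.90, 8.59 and 8.83 in normoxia, a level 50% of the normoxic one (adjusted p = 0.0629). NDC80 gave a log2 change of -0.56 ± 0.29 (SE, adjusted p = 0.264). In all 4 subunits every hypoxic array lay below every normoxic array, which held for 26.3% of all genes.

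CENPK and CENPM belong to the constitutive centromere network that links centromeric chromatin to the outer kinetochore. CENPK had 7.47, 6.82 and 7.25 in hypoxia and 8.52, 7.995 and 8.26 in normoxia, a log2 change of -1.08 ± 0.22 (SE, adjusted p = 0.00865). CENPM had 8.16, 8.28 and 8.27 in hypoxia and 8.81, 8.90 and 8.92 in normoxia, a change of -0.64 ± 0.14 (SE, adjusted p = 0.0122). CENPA, the histone H3 variant that marks centromeres, had 9.18, 9.14 and 9.18 in hypoxia and 9.64, 9.67 and 9.76 in normoxia, which missed the threshold (-0.52 ± 0.16 SE, adjusted p = 0.0586). CENPI gave a log2 change of -0.46 ± 0.21 (SE, adjusted p = 0.193) and CENPE, a kinesin at the kinetochore, one of -0.55 ± 0.32 (SE, adjusted p = 0.337). CENPF, a large protein of the outer kinetochore and the G2 nuclear matrix, gave 0.13, with a 95% interval of -0.36 to 0.62, and its groups overlapped.

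With HIF1A siRNA, 8 of the 10 kinetochore genes were lower than in normoxia, and with HIF2A siRNA 4 of 10 (SPC25, SPC24, CENPA and CENPM). Over all genes 30.4% and 6.79% were called lower in these comparisons, and in the members' range 46.6% and 10.3%. SPC25 had 6.63, 6.68 and 5.56 with HIF1A siRNA, 6.90, 6.46 and 7.35 with HIF2A siRNA and 8.74, 8.15 and 8.30 in normoxia. The log2 changes from normoxia were -2.10 ± 0.36 (SE, adjusted p = 0.00384) with HIF1A siRNA and -1.50 ± 0.36 (SE, adjusted p = 0.0273) with HIF2A siRNA. NDC80 had 6.43, 7.43 and 6.09 with HIF1A siRNA, 7.54, 7.25 and 7.61 with HIF2A siRNA and 8.27, 7.93 and 8.001 in normoxia. Arrays 1 and 3 with HIF1A siRNA lay below the HIF2A siRNA arrays, and array 2 lay among them. CENPM and CENPF were not called with HIF1A siRNA (-0.29 ± 0.14 SE, adjusted p = 0.118 and -0.36 ± 0.22 SE, adjusted p = 0.214).

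**Figure D3:**
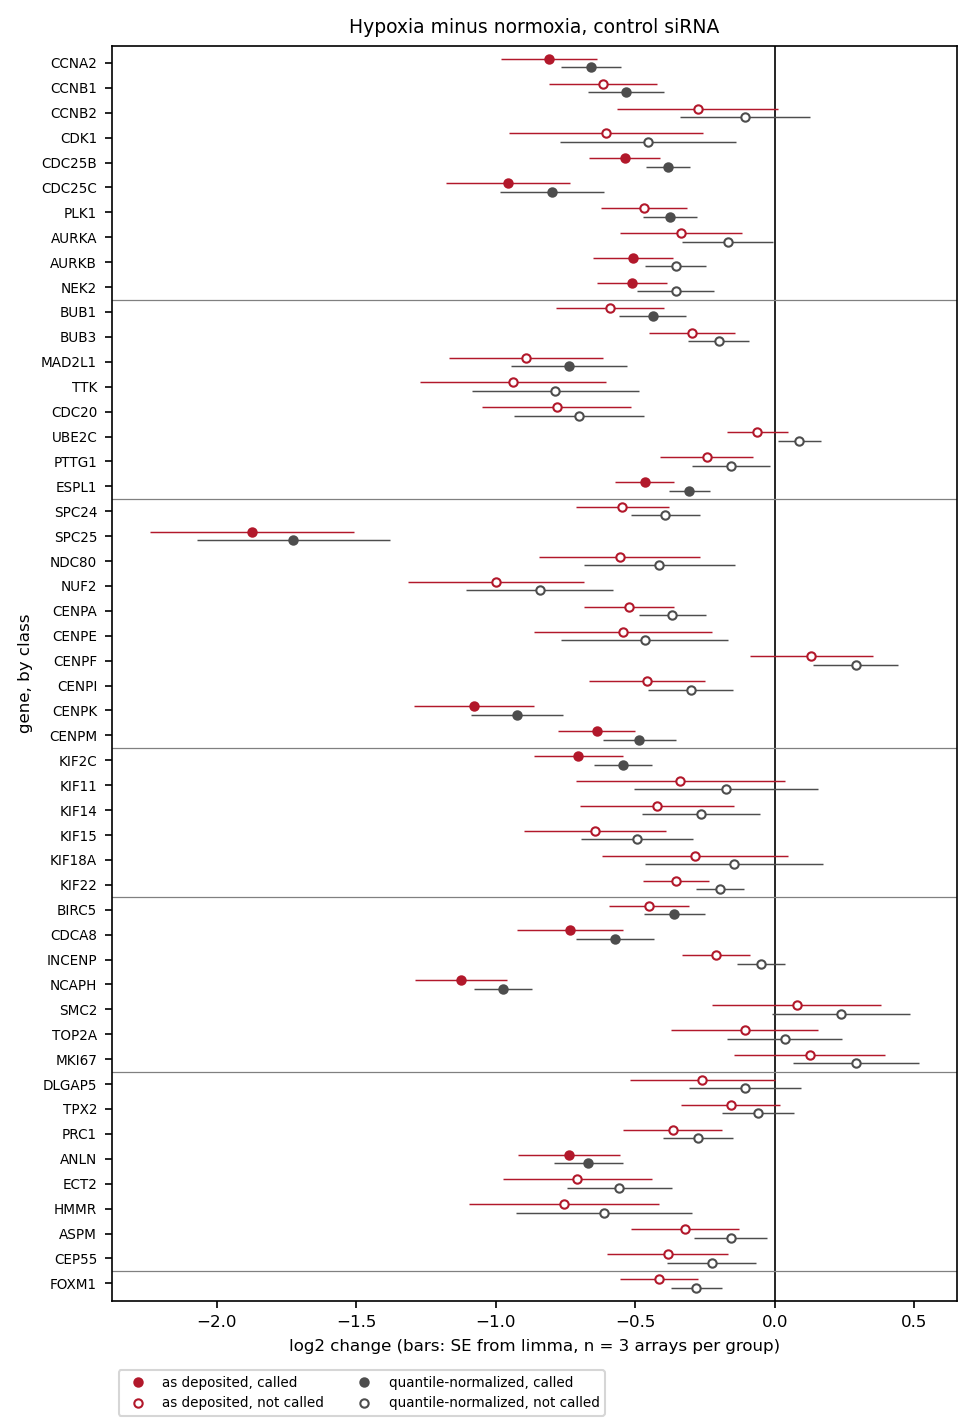
Log2 change in hypoxia against normoxia, both with control siRNA, for the 50 measured members in class order. Points are changes as deposited (red) and after quantile normalization (grey) with SE bars (n = 3 arrays per group), filled where the adjusted p is under 0.05. SPC25 lies furthest to the left at -1.87, and CENPF, SMC2 and MKI67 lie right of 0.

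Of the 6 measured kinesins, KIF2C fell in hypoxia and the others did not pass the test, with a median log2 change of -0.39. The share called lower was 8.95% of all genes and 13.6% of those in the members' range. KIF2C, which takes microtubules apart at centromeres, had 8.68, 8.51 and 8.66 in hypoxia and 9.42, 9.23 and 9.30 in normoxia, a change of -0.70 ± 0.16 (SE, adjusted p = 0.0152). KIF15, a motor that can hold the spindle bipolar, gave a log2 change of -0.65 ± 0.26 (SE, adjusted p = 0.135) and KIF22, a chromosome arm motor, one of -0.35 ± 0.12 (SE, adjusted p = 0.0783). KIF11 (Eg5), which pushes spindle poles apart, gave a log2 change of -0.34 ± 0.38 (SE, adjusted p = 0.675), KIF14 one of -0.42 ± 0.28 (SE, adjusted p = 0.404) and KIF18A, which limits microtubule length at kinetochores, one of -0.29 ± 0.33 (SE, adjusted p = 0.695). The groups overlapped for KIF11, KIF14 and KIF18A.

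The kinesins were lower than in normoxia in 6 of 6 cases with HIF1A siRNA and in 0 of 6 with HIF2A siRNA, with medians of -1.22 and -0.41, against 30.4% and 6.79% of all genes called lower. Set directly against HIF2A siRNA, HIF1A siRNA gave 0 of 6 kinesins called and 5 lower at an unadjusted p under 0.05 in limma, the lowest adjusted p being that of KIF18A (0.0577). Before adjustment, 2 of the 6 were lower with HIF2A siRNA at p under 0.05 in limma, and after quantile normalization KIF2C was called. KIF11 had 7.55, 8.49 and 6.69 with HIF1A siRNA, 8.75, 8.28 and 9.01 with HIF2A siRNA and 9.31, 9.04 and 9.09 in normoxia. It fell to 33.7% of the normoxic level with HIF1A siRNA (log2 change -1.57 ± 0.38 SE, adjusted p = 0.0106), and array 3 was far below arrays 1 and 2. The call of KIF22 with HIF1A siRNA (-0.38 ± 0.12 SE, adjusted p = 0.0289) was lost after quantile normalization, where its sign turned (0.06).

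Of the genes of chromosome structure and the passenger complex, 2 of 7 fell in hypoxia and 0 rose, with a median of -0.21. Lower calls made up 8.95% of all genes and 13.6% of those in the members' range. NCAPH, a subunit of condensin I, had 8.66, 8.45 and 8.61 in hypoxia and 9.78, 9.62 and 9.69 in normoxia. Its log2 change of -1.12 ± 0.17 (SE, adjusted p = 0.00178) had the lowest p among the members, and it left 45.9% of the normoxic level. CDCA8, borealin, of the passenger complex, had 8.16, 8.14 and 8.31 in hypoxia and 8.97, 8.82 and 9.03 in normoxia, a change of -0.73 ± 0.19 (SE, adjusted p = 0.029). BIRC5, survivin, of the same complex, had 10.61, 10.55 and 10.59 in hypoxia and 11.01, 11.04 and 11.05 in normoxia, and was called after quantile normalization (adjusted p = 0.048) but not as deposited (-0.45 ± 0.14 SE, adjusted p = 0.0641). INCENP, the scaffold of the complex, gave a log2 change of -0.21 and TOP2A, the topoisomerase that untangles sister chromatids, one of -0.11, neither of them called.

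SMC2, the ATPase shared by both condensins, gave 0.08 in hypoxia, with a 95% interval of -0.59 to 0.74. MKI67, the proliferation marker Ki-67 that coats mitotic chromosomes, had 10.14, 9.23 and 9.17 in hypoxia and 9.42, 9.32 and 9.42 in normoxia. Hypoxic array 1 alone stood above the normoxic arrays, and the log2 change was 0.12 ± 0.27 (SE, adjusted p = 0.852) with an interval of -0.47 to 0.72. With HIF1A siRNA, 6 of the 7 genes were lower than in normoxia, MKI67 being the exception, and with HIF2A siRNA 2 of 7 (NCAPH and CDCA8). The shares called lower were 30.4% and 6.79% of all genes, and 46.6% and 10.3% of the genes in the members' range. NCAPH had 8.84, 8.50 and 8.09 with HIF1A siRNA, 8.72, 8.57 and 8.87 with HIF2A siRNA and 9.78, 9.62 and 9.69 in normoxia, so that all siRNA arrays were below normoxia.

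Of the 8 spindle and cytokinesis genes, ANLN fell in hypoxia and the others did not pass the test, with a median of -0.38. For hypoxia against normoxia, 8.95% of all genes and 13.6% of those in the members' range were called lower. ANLN, anillin, the scaffold of the cleavage furrow, had 10.92, 10.55 and 10.62 in hypoxia and 11.53, 11.35 and 11.43 in normoxia, a log2 change of -0.74 ± 0.18 (SE, adjusted p = 0.0236). ECT2, the exchange factor that switches on RhoA at the furrow, gave a log2 change of -0.71 ± 0.27 (SE, adjusted p = 0.116), and HMMR, a spindle protein and hyaluronan receptor, one of -0.76 ± 0.34 (SE, adjusted p = 0.19). The smallest change was that of TPX2, which activates AURKA on the spindle, with -0.16 and an interval of -0.55 to 0.23. PRC1, which bundles the central spindle, ASPM, CEP55 and DLGAP5 lay between -0.38 and -0.26. With HIF1A siRNA, 8 of 8 were lower than in normoxia, with a median of -1.02. The largest changes were those of HMMR (-1.37 ± 0.34 SE, adjusted p = 0.0124 in limma) and ECT2 (-1.32 ± 0.27 SE, adjusted p = 0.00618). Of all genes 30.4% were called lower in that comparison, and of those in the members' range 46.6%, with a median of -0.38. With HIF2A siRNA, 0 of 8 were called, against 6.79% of all genes called lower. Before adjustment, 4 were lower at p under 0.05 in limma, and ANLN and PRC1 passed after quantile normalization.

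FOXM1, the transcription factor that acts at many of these promoters, had 9.81, 9.91 and 9.41 with HIF1A siRNA, 10.08, 9.97 and 10.05 with HIF2A siRNA, 10.37, 10.08 and 9.96 with control siRNA at 1% oxygen and 10.54, 10.57 and 10.54 in normoxia. All 9 hypoxic arrays lay below the normoxic ones, which were nearly equal. The log2 changes from normoxia were -0.85 ± 0.14 (SE, adjusted p = 0.00358) with HIF1A siRNA, -0.52 ± 0.14 (SE, adjusted p = 0.0412) with HIF2A siRNA and -0.42 ± 0.14 (SE, adjusted p = 0.08) with control siRNA, and limma called the change with either HIF siRNA but not that with control siRNA. MYBL2, of the MYB-MuvB complex, was lower with HIF2A siRNA than in normoxia (-0.52 ± 0.14, adjusted p = 0.0426). LIN9, of the same complex, was lower than in normoxia with control siRNA in hypoxia (-0.95 ± 0.25, adjusted p = 0.0301 in limma). It was also lower than in normoxia with HIF1A siRNA (-1.39 ± 0.25, adjusted p = 0.00428 in limma).

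Over all classes, 45 of the 50 members were lower with HIF1A siRNA in hypoxia than in normoxia and 0 were higher, with a median log2 change of -0.94. The 5 not called were AURKB, CENPM, CENPF, PTTG1 and MKI67. The calls over all genes leaned the same way: 30.4% of them were called lower and 4.67% higher, and 46.6% of the genes in the members' range were lower, with a median of -0.38. After quantile normalization 36 members were called lower and 0 higher, with a median of -0.58, against 14.6% of all genes and 19.6% of those in the range, whose median was then -0.02. By class these were 7 of the 10 cyclins, kinases and phosphatases, 4 of the 8 checkpoint genes, 7 of the 10 kinetochore genes, 5 of the 6 kinesins, 4 of the 7 chromosome and passenger genes, 8 of the 8 spindle genes and FOXM1. All 3 HIF1A siRNA arrays lay below all normoxic ones in 45 members and in 37.8% of all genes. Each of 16 members kept its call under each alternative run, and TTK, SPC25, NCAPH, CCNA2, CCNB1, PLK1 and FOXM1 were among them. With quantile normalization over the 11 arrays other than HIF1A siRNA array 3, a setting chosen after the data were seen, 16 members were called lower.

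With HIF2A siRNA in hypoxia, 14 of the 50 were lower than in normoxia and 0 were higher, with a median of -0.52, against 6.79% of all genes called lower and 2.85% higher. In the members' range 10.3% of the genes were lower, with a median of -0.14. After quantile normalization 18 members were lower and 0 higher, with a median of -0.39, against 6.34% of all genes. All 3 arrays lay below normoxia in 40 members and in 26.7% of all genes. NCAPH (-0.98 ± 0.17 SE, adjusted p = 0.00456), ESPL1 (-0.57 ± 0.11 SE, adjusted p = 0.00821) and CENPM (-0.72 ± 0.14 SE, adjusted p = 0.00865) kept their calls under each alternative. The count was 3 without normoxic array 1 or 3, 4 without HIF2A siRNA array 2, 5 without HIF2A siRNA array 1 or normoxic array 2, 9 without HIF2A siRNA array 3, and 27 without HIF1A siRNA array 3. The 3 comparisons with normoxia share the same 3 normoxic arrays.

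Set against control siRNA in hypoxia, HIF1A siRNA lowered 4 of the 50 members and raised 0, with a median log2 change of -0.37. Without HIF1A siRNA array 3 the median was -0.16, and in the 11-array quantile setting -0.03. The share of members called lower is no higher than that of all genes, of which 10.2% were called lower and 0.857% higher, nor than that of the genes in the members' range, of which 15.4% were lower with a median of -0.21. SMC2 had 8.13, 9.18 and 7.76 with HIF1A siRNA, against 10.02, 9.48 and 9.51 with control siRNA, a change of -1.31 ± 0.30 (SE, adjusted p = 0.0224). KIF18A had 6.17, 7.28 and 5.82 with HIF1A siRNA and 7.95, 7.47 and 7.43 with control siRNA, a change of -1.19 ± 0.33 (SE, adjusted p = 0.0434). CCNB2 had 8.49, 9.45 and 8.14 with HIF1A siRNA and 10.13, 9.58 and 9.48 with control siRNA, a change of -1.04 ± 0.29 (SE, adjusted p = 0.0431). In each of the 3 genes, arrays 1 and 3 with HIF1A siRNA lay far below array 2, which itself lay under the lowest control array. DLGAP5, a spindle assembly protein, had 8.25, 9.09 and 7.82 with HIF1A siRNA and 9.59, 9.15 and 9.32 with control siRNA, a change of -0.96 ± 0.26 (SE, adjusted p = 0.0389). KIF11 (-1.23 ± 0.38 SE, adjusted p = 0.0575) and TOP2A (-0.83 ± 0.26 SE, adjusted p = 0.0626) gave changes of similar size and missed the threshold.

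All 3 HIF1A siRNA arrays lay below all control arrays in 11 members, against 19.8% of all genes. No call in this comparison withstood all left-out arrays: the count was 0 without HIF1A siRNA array 3 or control array 1, 1 without control array 2 or 3, without HIF2A siRNA array 1 or without any 1 of the normoxic arrays, 2 without HIF1A siRNA array 1 or HIF2A siRNA array 3, and 16 without HIF1A siRNA array 2.

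**Figure D4:**
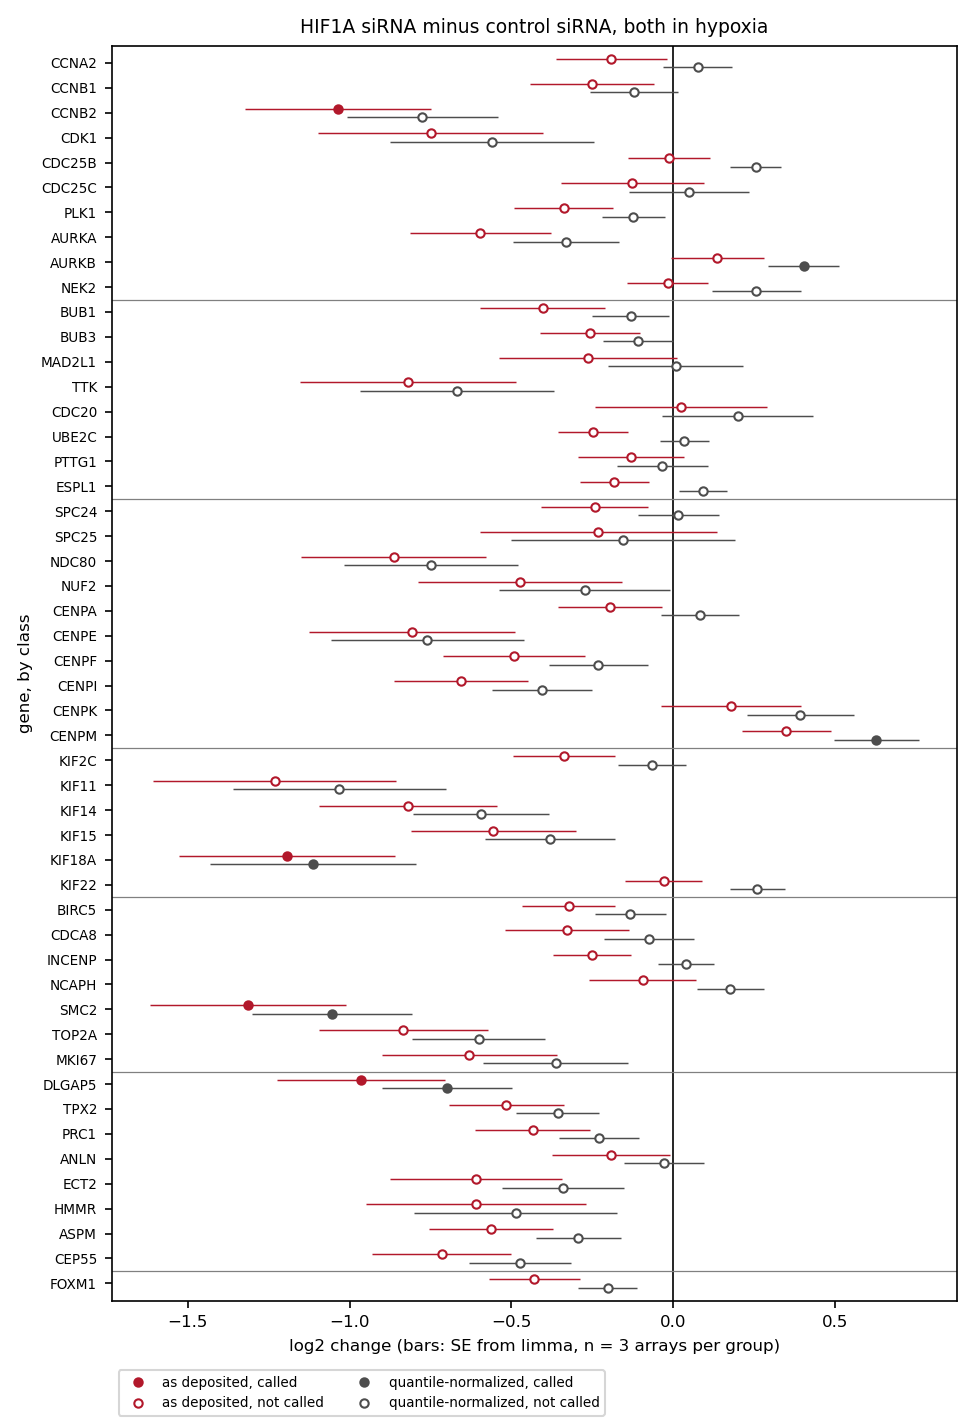
Log2 change with HIF1A siRNA against control siRNA, both in hypoxia, for the 50 measured members in class order. Points are changes as deposited (red) and after quantile normalization (grey) with SE bars (n = 3 arrays per group), filled where the adjusted p is under 0.05. Quantile normalization moves all 50 points to the right, and AURKB and CENPM are then called higher.

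After quantile normalization the same comparison gave 3 members lower (SMC2, KIF18A and DLGAP5) and 2 higher, with a median of -0.14, against 7.90% of all genes lower, 5.10% higher and 11.1% lower in the members' range. The 2 higher genes were CENPM (0.63 ± 0.13, adjusted p = 0.0133) and AURKB (0.40 ± 0.11, adjusted p = 0.0383) in limma. On the quantile-normalized scale CENPM had 9.02, 8.69 and 8.80 with HIF1A siRNA and 8.01, 8.35 and 8.26 with control siRNA. AURKB had 9.81, 9.61 and 9.52 with HIF1A siRNA and 9.15, 9.33 and 9.24 with control siRNA on that scale. As deposited, CENPM had 8.90, 8.54 and 8.32 with HIF1A siRNA and 8.16, 8.28 and 8.27 with control siRNA (0.35 ± 0.14 SE, adjusted p = 0.115), above the control on all 3 arrays. AURKB had 9.70, 9.48 and 9.05 with HIF1A siRNA and 9.30, 9.28 and 9.24 with control siRNA as deposited (0.14 ± 0.14 SE, adjusted p = 0.529), with array 3 below the controls. CCNB2 just missed the threshold after quantile normalization (adjusted p = 0.0512).

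The spread among the HIF1A siRNA arrays was wider than in the other groups. Array 3 was the lowest of the 3 in 50 of 50 members as deposited and in 39 after quantile normalization, and arrays 1 and 2 were each the highest in 25. Over all probe sets array 3 also had the lowest upper quartile, 7.88 against 8.22 and 8.20 on arrays 1 and 2. How many of all genes were lowest on array 3 was not counted. The median SD of the members was 0.42 with HIF1A siRNA, 0.18 with HIF2A siRNA, 0.20 with control siRNA in hypoxia and 0.11 in normoxia, and for the genes in the members' range it was 0.25, 0.14, 0.14 and 0.08. CDK1, at 7.03, 8.23 and 6.63, KIF18A, SMC2, NDC80, CCNB2, KIF11, TOP2A, DLGAP5 and AURKA were lower on array 1 than on array 2 by 0.77 to 1.20. CDC20, at 11.27, 10.41 and 9.95, was higher on array 1 than on array 2 by 0.86, CENPA by 0.52, PTTG1 by 0.44 and CDC25C by 0.40. HIF1A itself was 8.20, 9.06 and 7.74 on these arrays, with array 2 the highest, as in 25 of the 50 members. The part of the differences between these arrays in the members' changes was not tested.

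**Figure D5:**
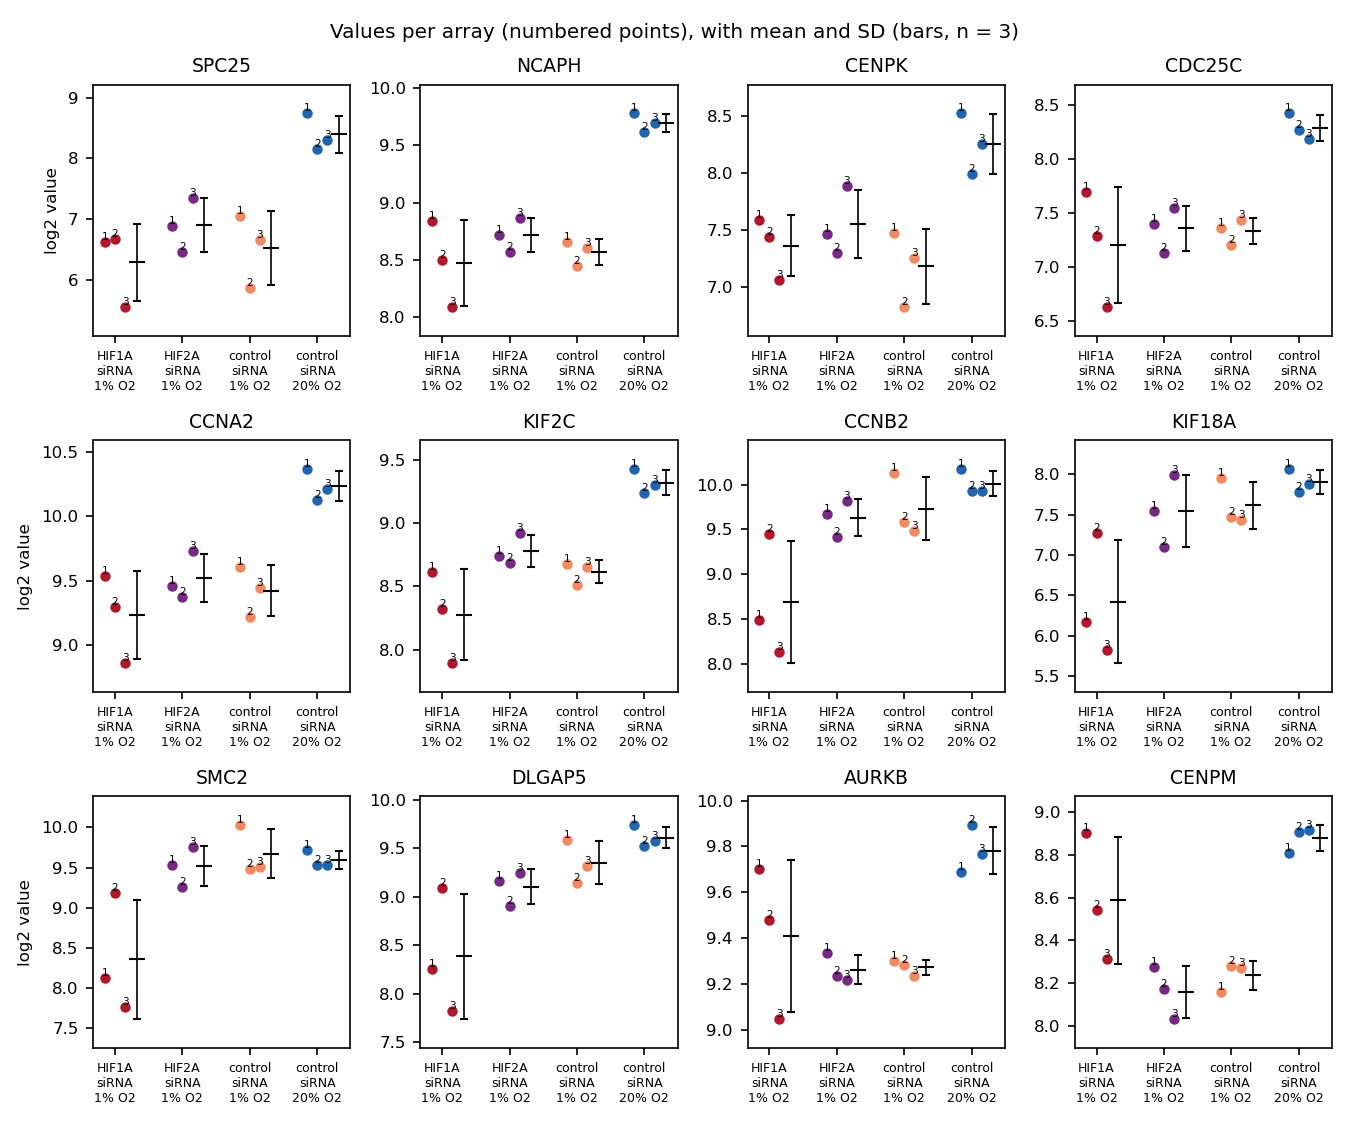
Log2 values of 12 members on each array, as deposited. Numbered points are arrays 1 to 3 of each group, and the bar beside them is the mean with its SD (n = 3). In the upper row and for CCNA2 and KIF2C all hypoxic groups lie under normoxia, and for CCNB2, KIF18A, SMC2 and DLGAP5 arrays 1 and 3 with HIF1A siRNA lie far below array 2.

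The members were also split by whether the promoter window holds a CHR. In hypoxia against normoxia with control siRNA, 4 of the 29 with a CHR were called lower (median -0.47) and 8 of the 13 without one (median -0.55), and after quantile normalization 7 of 29 and 7 of 13. With HIF1A siRNA against normoxia the counts were 27 of 29 and 11 of 13, and after quantile normalization 22 of 29 and 9 of 13. With HIF2A siRNA against normoxia they were 5 of 29 and 7 of 13, and after quantile normalization 9 of 29 and 6 of 13. Of all genes as deposited, 8.95% were called lower with control siRNA, 30.4% with HIF1A siRNA and 6.79% with HIF2A siRNA, each against normoxia. These shares were 8.43%, 14.6% and 6.34% on quantile-normalized values. With HIF1A siRNA against control siRNA in hypoxia, 4 of the 29 with a CHR were called lower (median -0.56) and 0 of the 13 without one (median -0.13). After quantile normalization these were 3 of 29 (median -0.29) and 0 of 13 (median 0.05). As deposited, 10.2% of all genes and 15.4% of those in the members' range were called lower in this comparison. On quantile-normalized values those shares were 7.90% and 11.1%. With HIF2A siRNA against control siRNA in hypoxia the counts were 0 of 29 and 0 of 13. For ACGTG, the medians with HIF1A siRNA against control siRNA in hypoxia were -0.48 in the 14 members that have it and -0.29 in the 28 that do not. Called lower were 3 of 14 and 1 of 28, and after quantile normalization 2 of 14 and 1 of 28. The differences between these subsets were not tested.

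With HIF2A siRNA against control siRNA in hypoxia no member passed the test. In limma 0 of 50 were called in either direction, 0 at an unadjusted p under 0.05, and of all genes 0.00703% (EPAS1 alone) were lower and 0% higher. After quantile normalization 0 members were called and 1 was lower at an unadjusted p under 0.05. The median log2 change was -0.05, and the changes ran from -0.25 for DLGAP5 to 0.38 for HMMR. Intervals remain wide for single genes: that of CCNB1 was -0.28 to 0.57, that of PLK1 -0.46 to 0.22, that of NCAPH -0.22 to 0.51 and that of SPC25 -0.43 to 1.18. SPC25 had 6.90, 6.46 and 7.35 with HIF2A siRNA and 7.05, 5.86 and 6.65 with control siRNA, which overlap.

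Between the siRNAs in hypoxia, 1 of 50 members was lower with HIF1A siRNA than with HIF2A siRNA and 0 were higher, with a median of -0.41, against 8.53% of all genes lower and 0.899% higher. Without HIF1A siRNA array 3 the median was -0.20, and in the 11-array quantile setting -0.12. The lower member was SMC2, with 8.13, 9.18 and 7.76 with HIF1A siRNA and 9.53, 9.26 and 9.76 with HIF2A siRNA (-1.16 ± 0.30 SE, adjusted p = 0.0384). After quantile normalization SMC2 was still lower (adjusted p = 0.0417 in limma), and CENPM (0.70) and AURKB (0.41) were higher, against 6.89% of all genes lower and 5.61% higher. The count of lower members was 14 without HIF1A siRNA array 2, 5 without HIF1A siRNA array 1 or HIF2A siRNA array 2, 2 without hypoxic control array 1, and 0 without HIF1A siRNA array 3, HIF2A siRNA array 1 or 3, hypoxic control array 3 or any 1 of the normoxic arrays. Without HIF1A siRNA array 3, 1 member was higher.

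Related lists were counted in the same fits. Of 37 other measured mitosis genes, 35 were lower with HIF1A siRNA, 14 with HIF2A siRNA and 16 with control siRNA in hypoxia, each against normoxia, with medians of -0.98, -0.57 and -0.61. Of all genes, 30.4%, 6.79% and 8.95% were called lower in these comparisons. After quantile normalization the counts were 27, 15 and 16 for the other mitosis genes, 9, 3 and 5 for the G2/M regulators and 30, 30 and 30 for the genes of G1/S and replication, against 14.6%, 6.34% and 8.43% of all genes. CENPU, of the constitutive centromere network, was lower in hypoxia with control siRNA by a log2 change of -1.39 ± 0.24 (adjusted p = 0.00446). KIF20B, a kinesin of cytokinesis, was lower with HIF1A siRNA than with control siRNA (-1.24 ± 0.33, adjusted p = 0.0362). Of 24 regulators of G2/M, 19, 2 and 5 were lower in the same order of groups, and PKMYT1, which inhibits CDK1, was lower in hypoxia (-0.66 ± 0.11, adjusted p = 0.00315). Of 39 genes of G1/S and DNA replication, 35 were lower with HIF1A siRNA, 29 with HIF2A siRNA and 30 with control siRNA, with medians of -0.96, -0.85 and -0.93. CDC25A, the phosphatase of G1/S and S phase, was lower in hypoxia by -1.58 ± 0.16 (adjusted p = 0.000174). Against control siRNA in hypoxia, HIF1A siRNA lowered 3 of the other mitosis genes, 3 of the G2/M regulators and 0 of the G1/S genes, whose medians were -0.29, -0.24 and -0.06, and 0 of the G1/S genes were lower before adjustment at p under 0.05 in limma.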

How the data were processed

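The deposited values, 1 per probe set and array for 22011 probe sets, were treated as log2; the base was inferred from their range, and how the authors normalized and summarized them is not given here. Per the submitters' processing notes Partek and hg18 were used, and no hg18 position is given here. The platform annotation pairs 14432 probe sets with 1 symbol, which gave 14232 genes with the probe set of the highest mean for each. A mean per group was fitted with limma 3.58.1 in R 4.3.3 over all probe sets and 12 arrays, with eBayes and no replicate block. Tables were handled with pandas 2.3.3 and plots drawn with matplotlib 3.10.9 in Python 3.11.15. Benjamini-Hochberg adjustment ran over the 14232 genes of each comparison, and calls were made below 0.05. Changes carry limma's SE, with n = 3 per group, and precision is limited by that number. The script was tested on simulated data. Values in each array are given for the 20 members with the lowest p in hypoxia and each member called between siRNAs in hypoxia, with some others chosen after their values were seen. Of the related lists, genes among the 3 called with the largest change per direction are named. The members and lists were chosen with earlier results of these data known. Promoters were those of RefSeq. Alternatives were other normalizations, array weights, a filter on low values, other probe sets and each array left out.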

Additional observations from a re-analysis of the deposited data

How the results depend on the processing

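The median change of the members stayed below 0 under each alternative run in 5 comparisons, and for HIF2A siRNA against control siRNA in hypoxia it ran from -0.09 to 0.06. It lay between -0.48 and -0.03 for HIF1A siRNA against the hypoxic control and between -0.50 and -0.12 for HIF1A siRNA against HIF2A siRNA, nearest to 0 in the 11-array setting described next. For hypoxia against normoxia with control siRNA, where 13 members were called lower, 22 were called with arrays centred on their medians, 26 with the 2 groups compared alone, 35 with array weights and 21 with quantile normalization of the 11 arrays other than HIF1A siRNA array 3, a setting chosen after seeing the data; leaving out 1 array gave 4 to 27. For HIF1A siRNA against normoxia (45), that last setting gave 16, and leaving out 1 array gave 35 to 47. For HIF2A siRNA against normoxia (14), centring gave 23, the 2 groups alone 29 and array weights 33, and leaving out 1 array gave 3 to 27. For HIF1A siRNA against control siRNA in hypoxia (4 lower, 0 higher), the low-value filter gave 8 lower, and the 2 groups alone, array weights and the 11-array setting 0; quantile normalization and cyclic loess gave 2 higher, and centring and the 11-array setting 1 higher. Leaving out 1 array gave 0 to 16 lower and 0 higher. For HIF1A siRNA against HIF2A siRNA (1 lower, 0 higher), the filter gave 6 lower and the 2 groups alone, array weights and the 11-array setting 0; quantile normalization and cyclic loess gave 2 higher, and centring and the 11-array setting 1. Leaving out 1 array gave 0 to 14 lower and 0 to 1 higher. For HIF2A siRNA against control siRNA the count was 0 in each direction under each alternative. Shares of all genes called are given here only as deposited and after quantile normalization. Whether member counts under the other settings moved with the share of all genes called was not examined.

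With HIF1A siRNA against normoxia, KIF22 turned to 0.0635 and UBE2C to 0.12 after quantile normalization, also with the replicate block, to 0.049 and 0.11 with cyclic loess and to 0.0673 and 0.12 in the 11-array setting, where INCENP turned to 0.0159. Over all genes, quantile normalization changed the split of calls to 1200 lower and 946 higher, against 1274 and 480 as deposited, in hypoxia against normoxia, to 2082 and 2241, against 4322 and 664, for HIF1A siRNA against normoxia, to 903 and 768, against 967 and 405, for HIF2A siRNA against normoxia, to 1124 and 726, against 1451 and 122, for HIF1A siRNA against the hypoxic control, and to 981 and 799, against 1214 and 128, for HIF1A siRNA against HIF2A siRNA. The replicate numbers did not pair the arrays: deviations of same-numbered arrays correlated at -0.29 to 0.42, and 4 of 12 arrays correlated best with their own number. With the replicate block the counts of lower members were 13, 43, 12, 1, 0 and 0 in the order hypoxia, HIF1A siRNA and HIF2A siRNA against normoxia, HIF1A siRNA and HIF2A siRNA against control siRNA, and HIF1A siRNA against HIF2A siRNA; with the block on quantile-normalized values they were 13, 33, 15, 1, 0 and 0, with 1 higher in each comparison of HIF1A siRNA with another siRNA. The causes of these changes were not tested.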
